A study of Mus musculus with 6 samples.

Results

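The T cell receptor alpha chain begins with a V segment, and the mouse Trav genes are the V segments that a developing T cell can choose from. The members described here are the 108 rows of the deposited table, of 47729 in all, that are annotated as T cell receptor V genes and whose names start with Trav. Members were taken by annotation and name, with no measured value used. All 108 lie on the plus strand of chromosome 14 (GRCm38), from 52427928 to 53977678, a span of 1549.75 kb, and all are upstream of the J alpha segments and of Trac, which encodes the constant part of the chain.

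RNA had been sequenced from splenic mouse follicular helper T (Tfh) cells, sorted as positive for CD4 and TCR beta and high for PD-1 and CXCR5, after NP-OVA was injected into the peritoneum of both groups. NP-OVA is a hapten coupled to ovalbumin that is used to raise germinal centre responses. The series holds 3 libraries labelled Cbl-/-Cbl-b-/-, called double knockout here, and 3 labelled wt ctrl, called control, and it asks how the ICOS to CBL signalling axis bears on the Tfh programme. The labels used here give no age, strain, promoter or Cre line, and do not give how many mice stand behind the 6 libraries, so each p-value reflects spread between samples that may be technical in part.

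A T cell builds its alpha chain gene in the thymus by cutting out the DNA between 1 V segment and 1 J segment and joining them. Early rounds of joining draw on V segments near the J cluster, and later rounds on the same chromosome reach V segments farther out. The delta chain genes lie between the V segments and the J alpha cluster, and segments with dv in their names can serve in alpha or in delta chains. In the mouse, the middle of the V region holds duplicated stretches whose copies carry a d or an n in their names. A mature T cell transcribes the V segment it has joined, so Trav reads in a bulk library reflect both which segments its cells carry and how much each cell transcribes. In such libraries fewer cells with a segment and less RNA per cell cannot be told apart.

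Libraries held 23392254 to 38368885 reads assigned to genes, of which 3862 to 6783 per library fell on Trav rows, 30135 in all. Cd4 stood at 64794 to 82665 normalised counts, Cxcr5 at 29321 to 44577 and Pdcd1, which encodes PD-1, at 26981 to 35462. These markers of the sort were thus present in all 6. Of 2 CD8 genes, Cd8a was at or near 0, at 0 to 3.58. Cd8b1 was not, at 109.2 to 188.5 in the double knockout libraries against 420.5 to 509.7 in the controls. Cbl stood at 2221 to 3856 in the double knockout libraries against 8614 to 12945 in the controls, and Cblb at 7459 to 8054 and 6955 to 10037, so the Cblb level did not separate the labels. Xist stood at 12769 to 18100 in the double knockout libraries against 12.9 to 970.4 in the controls, and the Y-linked Ddx3y at 0 to 7.16 and 2812 to 3721, so sex went with genotype and the effects of sex and genotype cannot be told apart. Foxp3, the regulatory T cell factor, stood at 5451 in double knockout replicate 2 and at 149.6 to 767.5 in the other 5 libraries. Of 2 further regulatory T cell genes, Il2ra was also highest there, at 831.7 against 84.5 to 403.8. Ikzf2 was not, at 11115 against 7951 to 17427, and was lower in every double knockout library than in any control. Between groups, 0 of the 3 genes were called. For the Trav calls, results below are given without that library where it changed them. For the delta genes, the J alpha segments and the cell markers, results without it are not given.

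Of the 108 members, 57 were kept for the test because their normalised count reached 10 in at least 3 of the 6 libraries. Another 14 had reads but fell short, and 37 had no read in any library. For 34 of those 37, every stretch of 50 bases also occurs in another gene, so no upper limit on their use is given. Of the 57, 10 reached 10 in control libraries but in no double knockout library, and no segment did so the other way round. Those 10 could only come out as lower, so the counts over kept segments describe the table and are not support for a direction.

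Of the 57 segments kept, 2 rose in the double knockout, 5 fell and 50 did not pass. The test was limma on log2(normalised count + 1), two-sided, with Benjamini-Hochberg adjustment over all 13602 genes kept and a threshold of 0.05. Over all genes kept, 2.93% were called, 1.85% as higher and 1.07% as lower. Those that rose were Trav21-dv12 and Trav13-4-dv7, both near the J end of the V region. Those that fell were Trav1, Trav8n-2, Trav13n-4, Trav12-2 and Trav3-3, spread from the far end of the locus inward. The log2 fold change was positive for 14 segments and negative for 43, and its median was -0.91 against -0.00114 over all genes kept. With every Trav value rescaled to its library's Trav total, the split of calls was 3 higher and 2 lower, where 2.91% of all genes were called. DESeq2 on the recovered reads, which called 8.24% of all genes, called 3 Trav segments higher and 20 lower.

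The ends of the segments called are shown because that stretch sets where the V segment stops and the joined part of the receptor begins. Each line gives the last 60 bases of the V exon, read from the plus strand of GRCm38 with GENCODE M21 exon bounds, and capitals run from the codon of the conserved cysteine, found as the last codon of a Tyr-x-Cys pattern, to the end of the segment. The lines follow the order of the locus, at chr14:52428817-52428876, chr14:53346365-53346424, chr14:53364047-53364106, chr14:53616855-53616914, chr14:53666447-53666506, chr14:53757862-53757921 and chr14:53876693-53876752.
Trav1: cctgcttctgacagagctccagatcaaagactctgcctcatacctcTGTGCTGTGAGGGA
Trav8n-2: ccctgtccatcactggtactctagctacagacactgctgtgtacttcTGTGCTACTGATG
Trav13n-4: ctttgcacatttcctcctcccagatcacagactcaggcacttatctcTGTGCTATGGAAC
Trav12-2: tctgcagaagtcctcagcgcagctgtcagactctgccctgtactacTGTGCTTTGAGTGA
Trav3-3: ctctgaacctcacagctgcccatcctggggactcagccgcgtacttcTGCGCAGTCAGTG
Trav13-4-dv7: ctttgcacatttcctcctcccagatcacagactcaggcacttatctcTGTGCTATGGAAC
Trav21-dv12: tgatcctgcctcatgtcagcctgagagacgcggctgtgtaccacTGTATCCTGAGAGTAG

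Trav13n-4 and Trav13-4-dv7 end in the same 60 bases, yet 1 fell and the other rose. Over the 279 bases of the V exon that were compared, the pair differed at 23, an identity of 91.8%.

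Trav21-dv12 (ENSMUSG00000076863), the last segment but 1 before the J cluster, was the most used segment in each double knockout library. Normalised counts of 470.4, 664.5 and 442.9 were found in double knockout replicates 1 to 3, against 167.2, 198.7 and 189.2 in control replicates 1 to 3. The groups did not overlap, and the lowest double knockout library stood above the highest control by a wide margin. The log2 fold change was 1.48 ± 0.20 (SE), with a limma adjusted p of 0.0126. As a share of all Trav reads it took 11.98% ± 1.53 in the double knockout against 3.35% ± 0.367 in the control (mean ± SD, n = 3 each, as throughout), 3.58-fold more. Per kb of exon, its mean normalised count over the 6 libraries was 987.5, the highest of the segments named, ahead of Trav3-3 at 843.5 and Trav13-1 at 633.0. The call was lost without double knockout replicate 1 (log2 fold change 1.55, limma adjusted p 0.0564) and without control replicate 1 (1.41, limma adjusted p 0.0661), and it held without each of the other 4 libraries.

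Trav13-4-dv7 (ENSMUSG00000094562) also has a delta name. It stood at 201.9, 189.3 and 167.3 in the double knockout libraries against 67.7, 79.5 and 89.1 in the controls. Its groups were well apart and each was tight. It rose by a log2 fold change of 1.24 ± 0.22 with a limma adjusted p of 0.0274, and its share was 4.29% ± 0.375 against 1.42% ± 0.0912. The call held only without double knockout replicate 3 or without control replicate 3 (log2 fold changes of 1.31 and 1.33). Without each of the other 4 libraries the log2 fold change was 1.13 to 1.25 and the call was lost. Only 22.9% of its 50-base words occur in no other gene, and with the d and n copies summed under 1 name the log2 fold change was 0.28 (limma adjusted p 0.478).

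Trav1 (ENSMUSG00000076758), the segment farthest from the J cluster, is the V segment of mucosal-associated invariant T (MAIT) cells in the mouse. It had 0, 6 and 2 reads in the double knockout libraries against 38, 32 and 47 in the controls, or 0, 4.92 and 1.79 against 39.0, 43.9 and 43.2 normalised counts. The control libraries agreed closely, and each double knockout library was far below them. The segment passed the filter through the controls alone, so it could only come out as lower. This was a log2 fold change of -4.08 ± 0.68 with a limma adjusted p of 0.0236, and the share of Trav reads was 15.5-fold lower. Its call held without double knockout replicate 2 (-4.68) or 3 (-4.14) and was lost without replicate 1 (-3.40, limma adjusted p 0.0564). With any 1 control library left out, the segment missed the filter. Traj33, the J segment of MAIT receptors, stood at 8.20 to 24.6 in the double knockout libraries against 4.11 to 20.5 in the controls, so those groups overlapped.

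In the n block, Trav13n-4 (ENSMUSG00000076823) stood at 20.5, 8.19 and 16.1 in the double knockout libraries against 94.3, 71.3 and 63.4 in the controls. Of its 50-base words, 86.7% are unique. The groups lay far apart, and the log2 fold change was -2.35 ± 0.41 with a limma adjusted p of 0.0274. With the d and n copies summed under 1 name, the direction turned, to 0.28 (limma adjusted p 0.478). Trav8n-2 (ENSMUSG00000076821), 2 rows upstream, stood at 12.3, 9.83 and 8.05 in the double knockout libraries against 35.9, 53.5 and 64.3 in the controls. Its groups did not overlap either, and its log2 fold change was -2.22 ± 0.39, with a limma adjusted p of 0.0274. The Trav13n-4 call held only without double knockout replicate 2 (-1.99) or 3 (-2.44), and it was lost when every Trav value was rescaled to its library's Trav total (-2.01, limma adjusted p 0.0617). The Trav8n-2 call held only without double knockout replicate 2 (-2.21). Without each of the other libraries the log2 fold changes were -2.60 to -2.18 and -2.45 to -2.04.

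Trav3-3 (ENSMUSG00000094828) was the most used segment in each control library. It stood at 285.9, 218.0 and 234.4 in the double knockout libraries against 412.3, 512.6 and 457.4 in the controls. The groups did not overlap, and the segment stayed among the heavily used ones in both. On the log2 scale the change was -0.91 ± 0.17 with a limma adjusted p of 0.0350, and the share was 5.71% ± 1.08 against 8.36% ± 1.20. No fit that left out 1 library kept this call, with log2 fold changes of -1.02 to -0.82 and limma adjusted p between 0.0607 and 0.132.

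Trav12-2 (ENSMUSG00000096656) stood at 65.6, 101.6 and 76.1 in the double knockout libraries against 192.8, 182.3 and 331.5 in the controls. Control replicate 3 was the highest, and every double knockout library was below every control. The log2 fold change was -1.50 ± 0.30 with a limma adjusted p of 0.0403, and the share was 1.86% ± 0.305 against 4.18% ± 1.01. The call held only without double knockout replicate 2 (-1.67). Without each of the other libraries it was -1.65 to -1.22. Both Trav12-2 and Trav3-3 lost the call when every Trav value was rescaled to its library's Trav total (-1.15 and -0.56).

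**Figure D1:**
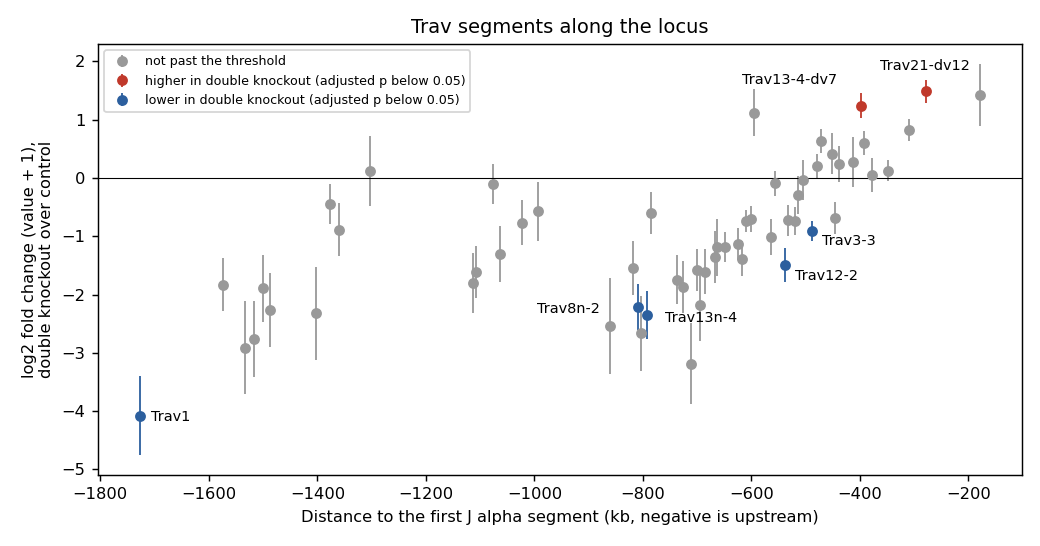
Log2 fold change of log2(normalised count + 1), double knockout over control, for the 57 Trav segments kept, against the distance in kb to the first J alpha segment; bars are standard errors from limma and colours mark the segments called. The 2 segments that rose lie at the right, near the J cluster, and Trav1 at -4.08 lies at the far left.

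Fold changes were ordered along the locus. Ranked from the segment farthest from the J cluster to the nearest, position and log2 fold change had a Spearman rho of 0.74 over the 57 segments kept. Of these, 10 were kept through control libraries only, so their lower values were fixed. By the zones defined below, these were 5 of 6 kept segments in the 5′ block, 1 of 7 in the d block and 3 of 9 in the n block. In the 3′ block they were 1 of 16 in the upstream part and 0 of 19 in the downstream part. The filter by itself can thus add to this order, and no rho that left out only these 10 was computed. The points share the same 6 libraries and, in part, sequence, so the rho is a description. It was 0.71 over the 49 segments without a delta name, 0.81 over the 39 with at least 50% unique 50-base words, 0.72 over the 29 with a mean of at least 50, and 0.70 to 0.77 without each library in turn. It was lower, at 0.64, with a pseudocount of 10, at 0.62 over the 71 segments tested with no filter, and at 0.47 with the authors' deposited fold changes, over the 67 with an adjusted p there. Within the 35 kept segments of the 3′ block alone it was 0.88.

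The locus was then divided into 5 zones by name and position, a division made after the values were seen. The 5′ block runs from Trav1 to Trav6-2 (7 rows), the d block from Trav7d-2 to Trav14d-3-dv8 (34), the n block from Trav7n-4 to Trav14n-3 (28), the upstream part of the 3′ block from Trav7-2 to Trav4-3 (19) and its downstream part from Trav12-2 to Trav23 (20). The downstream part took 72.6%, 72.0% and 71.2% of Trav reads in the double knockout libraries against 51.3%, 52.2% and 48.5% in the controls. All 4 other zones took less in the double knockout. In each zone the groups did not overlap, with an exact two-sided permutation p of 0.1, the smallest that 3 against 3 allows. The d block overlapped between groups over kept segments alone (3.56% against 4.48%, exact permutation p = 0.2), with Trav21-dv12 left out (4.65% against 5.66%, exact permutation p = 0.2) and over segments with at least 50% unique words (4.14% against 4.93%, exact permutation p = 0.4).

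The upstream part of the 3′ block held 19.1% ± 1.16 of Trav reads in the double knockout against 28.9% ± 1.08 in the control. The n block held 3.91% ± 0.614 against 10.7% ± 1.47, and the d block 4.09% ± 0.790 against 5.47% ± 0.422. The 5′ block held 0.925% ± 0.104 against 4.22% ± 0.696, which was 4.56-fold less, the largest ratio of the 5 zones. Its 7 rows are Trav1, Trav2, Trav3-1, Trav5-1, Trav6-1, Trav7-1 and Trav6-2, and all but Trav2 were kept. Each of those 6 had lower shares in every double knockout library than in any control, with log2 fold changes from -4.08 to -1.83, though Trav1 alone passed. Of these 6, 5 reached the filter value in control libraries only, all but Trav5-1, so their lower values were fixed by the choice of rows kept.

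In levels, not shares, the downstream part of the 3′ block summed to 3135 ± 356 normalised counts in the double knockout against 2805 ± 199 in the control, and those groups overlapped (exact two-sided permutation p = 0.2). The other 4 zones each summed to less in every double knockout library than in any control. The 5′ block summed to 40.1 ± 4.19 against 235 ± 50.8 and the n block to 171 ± 40.2 against 600.0 ± 144. Of the 19 kept segments in the downstream part, 12 had a positive and 7 a negative log2 fold change, with a median of 0.21. Medians were -2.52 in the 5′ block, -0.89 in the d block, -1.55 in the n block and -1.28 in the upstream part of the 3′ block. These medians include the 10 segments whose lower values were fixed by the filter.

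**Figure D2:**
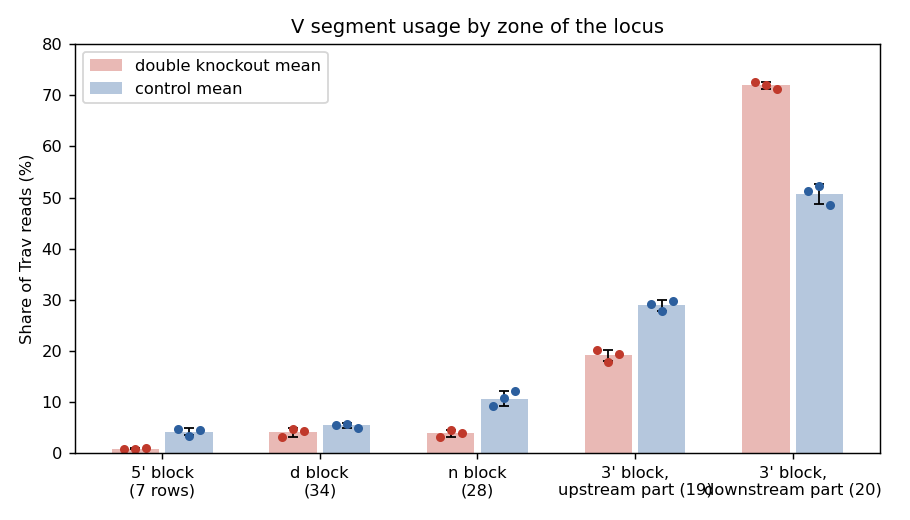
Share of all Trav reads (%) in 5 zones of the locus, ordered from the far end to the J end, with 1 point per library, bars at the mean and error bars of 1 SD (n = 3 per group). The double knockout libraries are above the controls in the last zone, 71.9% against 50.7%, and below them in the other 4.

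**Figure D3:**
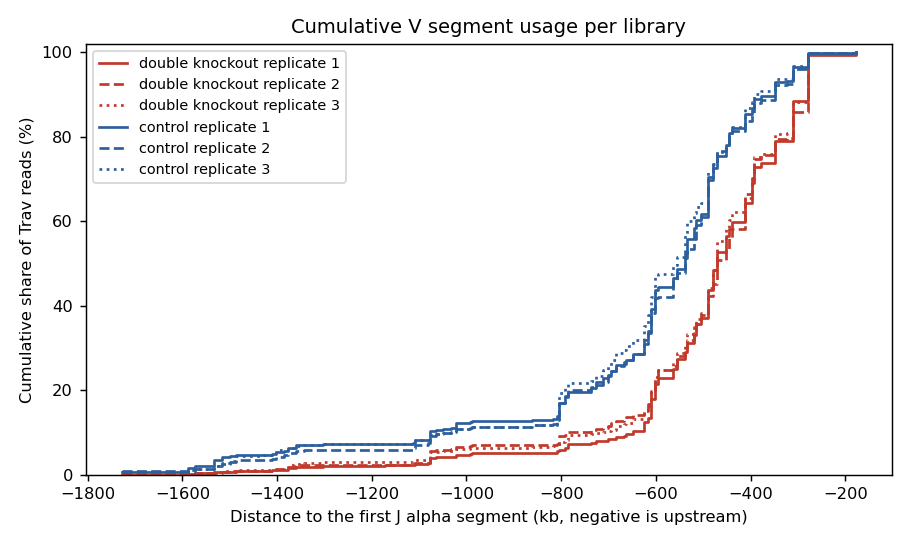
Cumulative share of Trav reads (%) in each of the 6 libraries, summed from the segment farthest from the J cluster, against the distance in kb to the first J alpha segment. The 3 control curves rise earlier than the 3 double knockout curves, and the double knockout curves gain most of their height over the last zone.

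Segments that share a family number were compared with each other. Of 10 families with at least 2 kept segments outside the duplicated copies, the member nearest the J cluster had a higher log2 fold change than the member farthest from it in 9. The difference between the nearest and the farthest member had a median of 1.92. In 3 of the 10 (Trav3, Trav6 and Trav7) the farthest member passed the filter through the controls only, so its lower value was fixed. Among the other 7 families the nearest member was higher in 6, with a median difference of 1.57. Log2 fold changes in family Trav9 were -1.36, -1.01 and 0.21 for Trav9-1, Trav9-2 and Trav9-4. In family Trav4 they were -1.75, -0.09 and 0.63 for Trav4-2, Trav4-3 and Trav4-4-dv10. In family Trav14 they were -0.70, -0.29 and 0.60 for Trav14-1, Trav14-2 and Trav14-3. None of these 9 segments was called. The exception was family Trav15, where Trav15-1-dv6-1 had 1.12 and Trav15-2-dv6-2, nearer the J cluster, had -0.03. These families were chosen as examples after their values were seen.

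Shares of single segments were compared next. Over the 57 segments kept, 12 (21.1%) had higher shares in every double knockout library than in any control, and 27 (47.4%) had lower shares. In levels, 7 of the 57 were higher without overlap, which is near the 12.3% of all genes kept. Lower without overlap were 34 of the 57, against 11.3% of all genes kept. The 34 include the 10 segments kept through control libraries only, whose lower levels were fixed by the filter. Shares sum to 100% in each library, so the segments are not independent. The exact two-sided permutation test gave its smallest value of 0.1 for 39 segments, and no adjusted value was below 0.146. With a mean share of at least 1%, 10 were higher and 8 lower without overlap.

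Trav19 had the second highest mean share in the double knockout group. It stood at 410.0, 295.0 and 287.2 in the double knockout against 175.4, 191.9 and 187.4 in the control libraries. The groups did not overlap, and the controls were nearly level with each other. A log2 fold change of 0.82 ± 0.19 missed the threshold (limma adjusted p 0.0674). It passed with Trav values rescaled to the Trav total of each library (1.16, limma adjusted p 0.0281) and under DESeq2 (0.84, DESeq2 adjusted p 0.00472). Its share was 7.64% ± 1.70 against 3.35% ± 0.315.

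Trav4-4-dv10 held 5.56% ± 1.21 of Trav reads in the double knockout against 2.78% ± 0.330 in the control, and Trav14-3 held 4.51% ± 0.729 against 2.33% ± 0.415. Trav17, all of whose 50-base words are unique, held 4.58% ± 0.659 against 3.30% ± 0.371. Shares of these 3 segments did not overlap between groups. In levels Trav17 did overlap, at 182.5 to 224.4 in the double knockout libraries against 176.4 to 189.1 in the controls, with a log2 fold change of 0.12. Trav9-4 likewise overlapped in level (0.21) but not in share, at 3.96% ± 0.909 against 2.66% ± 0.373.

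Trav15-1-dv6-1 stood at 65.6, 88.5 and 60.8 in the double knockout libraries against 46.1, 17.8 and 39.5 in the controls. It is the 1 kept segment of the upstream part of the 3′ block with a positive log2 fold change, 1.12 ± 0.41, and was not called (limma adjusted p 0.207). Trav13-1, one of the most used segments, stood at 187.6, 144.2 and 141.4 against 268.7, 250.8 and 264.5, with a log2 fold change of -0.74 (limma adjusted p 0.0849). Levels of Trav13-1 did not overlap, but its shares did. Trav14-1 held 3.32% ± 0.274 against 4.28% ± 0.586.

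Among the largest negative values that did not pass, Trav7-3 stood at 1.02, 8.19 and 8.95 in the double knockout libraries against 39.0, 39.7 and 84.5 in the controls. Its log2 fold change was -3.18 ± 0.69 (limma adjusted p 0.0541). Trav5-1 stood at 14.3, 0.819 and 10.7 against 74.9, 37.0 and 47.8, with a log2 fold change of -2.91 ± 0.80 (limma adjusted p 0.102). For both, every double knockout library was below every control. Without double knockout replicate 2, Trav7-3 passed (-3.53, limma adjusted p 0.0472), and without double knockout replicate 1 it was -2.44 (limma adjusted p 0.116). Without double knockout replicate 2, Trav5-1 was -1.95 (limma adjusted p 0.0638), and without double knockout replicate 1 it was -3.49 (limma adjusted p 0.155). Trav7-3 reached the filter value in control libraries only.

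**Figure D4:**
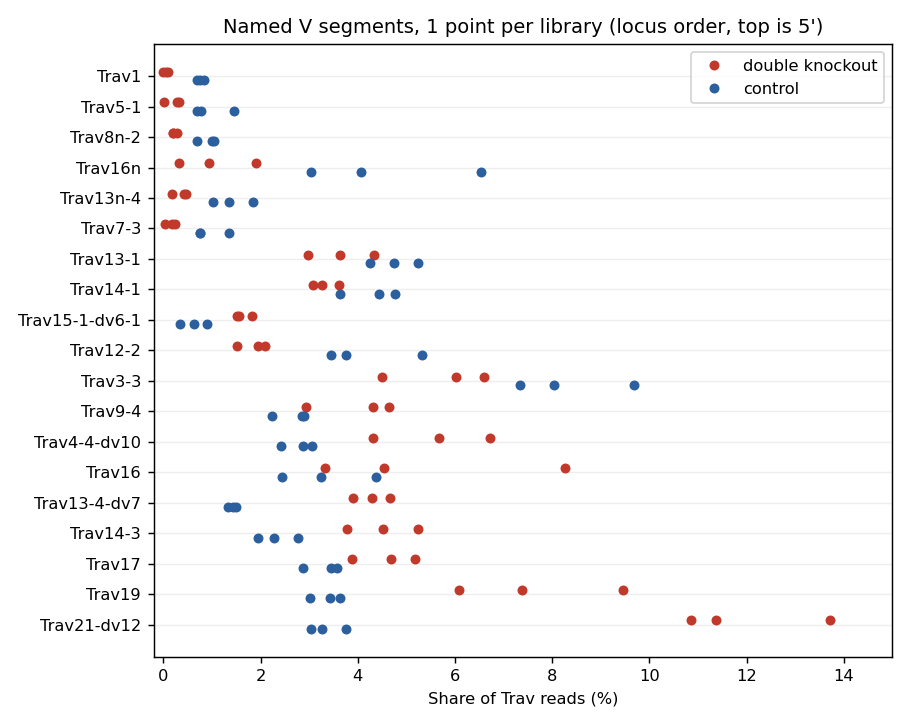
Share of all Trav reads (%) of the 19 segments named by rule that were kept, in locus order from the far end (top) to the J end, with 1 point per library. Trav21-dv12 lies between 10.9% and 13.7% in the double knockout libraries against between 3.04% and 3.75% in the controls, and Trav3-3 is the highest segment of the controls at 7.34% to 9.68%.

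Trav16 has near-identical copies in the d and n blocks. Over 301 bases of the V exon compared across Trav16d-dv11, Trav16n and Trav16, 6 positions differ, and pairwise identities are 98.3% to 99.0%. The window of 90 bases that holds 4 of the 6 is shown from each copy, on the plus strand of GRCm38 at chr14:53047703-53047792, chr14:53351503-53351592 and chr14:53743587-53743676, with the differing positions in capitals.
Trav16d-dv11: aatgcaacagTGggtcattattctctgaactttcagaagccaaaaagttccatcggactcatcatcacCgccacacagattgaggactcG
Trav16n: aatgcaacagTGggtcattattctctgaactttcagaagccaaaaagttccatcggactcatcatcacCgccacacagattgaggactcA
Trav16: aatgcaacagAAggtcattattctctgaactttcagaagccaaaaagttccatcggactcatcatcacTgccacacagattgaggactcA

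Trav16n, in the n block, stood at 14.3, 92.6 and 36.7 in the double knockout libraries against 155.9, 215.2 and 406.8 in the controls. Its groups did not overlap, with a log2 fold change of -2.67 ± 0.64 that missed the threshold (limma adjusted p 0.0704) and passed without double knockout replicate 2 (-3.32, limma adjusted p 0.0170). Trav16, near the J end, stood at 196.8, 400.7 and 129.7 against 166.1, 128.8 and 271.8. Double knockout replicate 2 was the highest of the 6, and the groups overlapped. Its log2 fold change was 0.27 ± 0.43, and -0.17 without that library. The 3 copies summed gave -0.77, which did not pass.

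Most rows without reads had no sequence of their own. Of the 37, 19 lie in the d block, 16 in the n block and 2 in the 3′ block. Every stretch of 50 bases (a word) in each V exon was looked up in all other transcripts of GENCODE M21. For 36 members no word was unique, and 34 of these had no read. The exceptions were Trav14n-1 with 39 reads and Trav11 with 1. The other 3 rows without reads had some unique words, 0.347% in Trav7d-2, 0.987% in Trav12n-3 and 14.4% in Trav15d-1-dv6d-1. All 41 members with at least 50% unique words had reads, and 39 of them were kept. The sources used here do not give how reads that match several genes were counted, so a row at 0 says nothing about use of that segment.

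**Figure D5:**
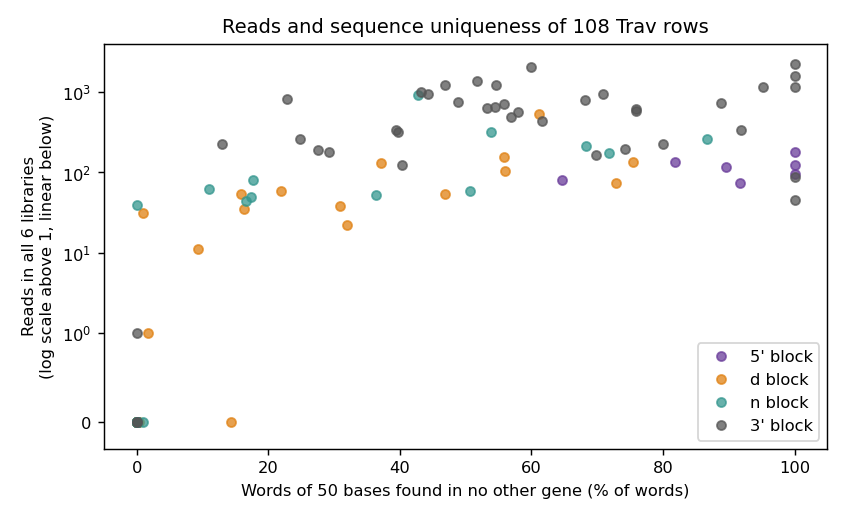
Reads of each of the 108 Trav rows summed over the 6 libraries (log scale above 1, linear below) against the percentage of its 50-base words found in no other gene, coloured by block. Rows at 0 reads sit at the left, at 0% to 14.4% unique words, and those with at least 50% unique words all have reads.

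Trav11 and Trav11d encode the V segment of the invariant receptor of NKT cells, joined to Traj18. Their exons are identical over the 342 bases compared, so the ends shown are the same sequence, offset by 1 base, at chr14:52824853-52824912 and chr14:53519800-53519859 with the cysteine codon onward in capitals.
Trav11d: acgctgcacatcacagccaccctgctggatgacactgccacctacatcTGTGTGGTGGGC
Trav11: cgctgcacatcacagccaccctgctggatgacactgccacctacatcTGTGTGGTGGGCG

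Neither row has a unique word. Trav11d had 0 reads and Trav11 had 1, in double knockout replicate 3, so use of this segment was not measured. Traj18 stood at 15.2 to 30.3 in the double knockout libraries against 16.4 to 28.8 in the controls, overlapping.

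In all, 8 summaries of Trav use per library were compared, and each separated the groups without overlap. Every exact two-sided permutation p was 0.1, the smallest possible, and 0.1 after Benjamini-Hochberg adjustment over the 8. The double knockout libraries used fewer segments in effect: the effective number, the exponential of the Shannon entropy of the shares, was 29.9, 30.6 and 32.0 against 43.8, 42.6 and 43.2. The most used segment took 11.98% ± 1.53 against 8.36% ± 1.20, and the top 5 took 37.2% ± 0.883 against 26.4% ± 1.75. The share of the most used segment overlapped between groups without delta-named segments (11.9% against 9.79%, exact permutation p = 0.2), with copies merged (11.98% against 9.69%, exact permutation p = 0.2) and without Trav21-dv12 (9.51% against 8.65%, exact permutation p = 0.4). Ranked by mean share, 9 segments held at least 50% of Trav reads in the double knockout libraries against 13 in the controls.

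The usage-weighted mean position, counted from 1 at Trav1 to 108 at Trav23, was 92.3, 91.1 and 90.9 in the double knockout against 81.0, 82.1 and 80.6 in the control libraries. The d and n copies together held 8.003% ± 1.402 against 16.2% ± 1.22. Mean position without the delta-named segments was 89.3 against 79.7, and over segments with at least 50% unique words it was 91.7 against 82.0, without overlap in either case.

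Segments with a delta name held 25.9%, 33.2% and 29.3% of Trav reads in the double knockout libraries against 15.1%, 15.6% and 12.8% in the controls. Of the 8 that were kept of 10, 4 had higher and 1 had lower shares without overlap, and of the 49 others, 8 were higher and 26 lower. The 49 include the 5 segments of the 5′ block kept through control libraries only, whose lower levels were fixed by the filter. Trav4-4-dv10, Trav13-4-dv7 and Trav21-dv12 lie in the downstream part of the 3′ block. There, 10 of 19 kept segments had higher shares without overlap. The part of position in this contrast was not tested. Delta genes moved with this. Trdc, the delta constant gene, stood at 6352, 12060 and 5425 against 998.9, 901.9 and 814.6 (log2 fold change 3.05 ± 0.27, limma adjusted p 0.00303), and Trdv1, Trdv2-2 and Trdv5 also rose. The gamma constant genes Tcrg-C1, Tcrg-C2 and Tcrg-C4 stood at 12.5 to 160.6 in the double knockout libraries against 10.1 to 42.5 in the controls, and none was called. The summed level of the gamma-delta list of 5 genes, Trdc and those 3 with Sox13, was 5519 to 12380 against 875 to 1056. That sum was made up mostly of Trdc, the 1 of its 4 tested genes that rose. The part of these genes in the shares of delta-named segments was not tested.

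Trav reads made up 0.0138% ± 0.00167 of all reads in the double knockout libraries against 0.0173% ± 0.00176 in the controls. Trac stood at 149423, 171176 and 149100 against 258497, 232038 and 267699, without overlap, with a log2 fold change of -0.69 ± 0.16 (limma adjusted p 0.0667). Set against Trac, Trav reads came to 2.78% ± 0.151 and 2.20% ± 0.187. Without the delta-named segments that ratio was 1.96% against 1.88%, and the groups overlapped (exact two-sided permutation p = 0.6). Cd247, the zeta chain of the receptor complex, fell from 23686 ± 2224 to 9086 ± 1317 (limma adjusted p 0.00424), while Cd3e, Cd3d and Cd3g, the other chains, did not pass.

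Libraries of a group were nearer to each other in Trav use than to the other group. The Bray-Curtis distance between shares was 9.51% to 18.3% within the double knockout, 13.1% to 16.3% within the control, and 27.9% to 34.6% over the 9 pairs between groups. The widest pair within a group was double knockout replicates 1 and 2. Chi-square per degree of freedom of the reads was 2.19 to 6.89 within groups and 14.04 to 28.7 between them, so replicate pairs differed by more than read counting alone gives. That chi-square covers counting error only and takes reads as independent, which PCR reads are not. Some markers of other cells moved too. Klrb1c, an NK and NKT cell receptor, fell (log2 fold change -1.78, limma adjusted p 0.0428). The summed invariant NKT list of 5 genes was 611 to 1274 against 2255 to 2718, a sum made up mostly of Klrb1c. Zbtb16, the PLZF factor of NKT cells, is on the same list and went the other way, at 207.0, 79.5 and 51.0 against 22.6, 28.8 and 5.51, without overlap (log2 fold change 2.52, limma adjusted p 0.103). Of the MAIT list, Trav1 fell and Traj33 did not pass. Cd8b1 fell from 476 ± 48.7 to 137 ± 44.5 (limma adjusted p 0.0123) with Cd8a at or near 0. Of the B cell list of Cd79a, Cd79b, Ms4a1 and Ighm, 0 of 4 genes were called. Cd79a stood at 7.16 to 22.9 against 27.4 to 53.3 and Ms4a1 at 1.79 to 6.15 against 17.8 to 67.7, while Cd79b and Ighm overlapped. The part of these cells in the Trav shares was not tested.

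The J alpha segments, the other partner of the joining, were read in the same way. Of 60 Traj rows 55 were kept, of which 4 rose and 1 fell, where 1.85% of all genes were called higher and 1.07% lower. Traj46 and Traj56 reached the filter value in double knockout libraries only, so they could only come out as higher. Those that rose, Traj61, Traj58, Traj56 and Traj46, lie in the 5′ part of the J cluster, the side that faces the V segments. Traj58 stood at 68.7, 160.6 and 60.8 in the double knockout against 19.5, 17.8 and 19.3 in the control libraries. Traj31, the 1 that fell, had far higher levels, at 1509, 1518 and 1478 against 2894, 2669 and 3455. Its log2 fold change was -0.99 (limma adjusted p 0.00871). The 30 rows on the 5′ side took 23.1%, 28.1% and 24.1% of Traj reads against 10.9%, 12.1% and 9.03%. Usage-weighted mean position of Traj reads, ranked from the 5′ end, moved less, at 31.4, 30.1 and 30.6 against 32.8, 33.6 and 31.7. The part of Traj31 in these shares was not tested. Position from 5′ to 3′ and log2 fold change had a Spearman rho of -0.61 over the 55, a description over segments that share the libraries. The recombinase genes Rag1 and Rag2 were at 0 to 4.10 and Dntt at 0 to 16.4 normalised counts in the 6 libraries.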

How the data were processed

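The labels give 6 samples, grouped by genotype and numbered in their titles. Per the file headers, the authors deposited normalised counts for each gene and library (a signal scaled to library size), and the values show that every column is its reads over a single factor. Per the file headers, the authors also deposited log2 fold changes with their errors, the statistic of their test (a score) and its p-values, which served as an alternative here. GRCm38, featureCounts 1.4.6, STAR 2.5.1b and DESeq2 1.12.3 are named in the submitters' processing notes, without roles. The sources used here give no annotation release, strand setting or read length, so reads of overlapping or near-identical segments may be mixed.

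Whole reads were recovered by dividing each column by its smallest value above 0 (100% whole within 0.001 of a read), and Trav shares were computed from them. Exons, positions and sequences came from GENCODE M21 (GRCm38), where the Ensembl identifiers of all 108 members were found. Sequence uniqueness was counted over words of 50 bases.

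Levels were tested with limma-trend (limma 3.58.1, R 4.3.3) between genotypes, with no other term. The test used log2(value + 1) over genes whose value reached 10 in 3 or more of the 6 libraries. The same fit was also run on simulated data, with results not given here. Shares and library summaries were compared with exact permutation tests. Alternatives were edgeR 4.0.16, DESeq2 1.42.0, pseudocounts of 0.5 and 10, no filter, a filter at 50, TMM, within-Trav scaling, merged copies, a replicate block and each library left out. Leaving out delta-named segments, shares per kb of exon, uniquely matched segments, the zones and a filter on the mean were added after seeing the data. Python 3.11.15 with numpy 2.4.6, pandas 2.3.3, scipy 1.17.1 and matplotlib 3.10.9 was used.

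Members and lists were chosen with earlier results of these data known. Segments named were those called, the 12 with the highest mean share, the 5 largest positive and 5 largest negative log2 fold changes whose higher group averaged at least 50, Trav1, Trav11 and Trav11d, and up to 6 with shares of at least 1% that did not overlap. Others were named after their values were seen. Limits on shares at 0 reads cover counting error only.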

Additional observations from a re-analysis of the deposited data

How the results depend on the processing

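The main fit called 2 segments higher and 5 lower, and 2.93% of all genes. Percentages in brackets are the share of all genes called in that fit. The number called lower was 20 with DESeq2 (8.24%), 19 in the authors' deposited table (6.61%) and 10 with a pseudocount of 10 (3.40%). It was 3 with the filter at 50 (3.13%), where 30 segments were tested, and 2 with within-Trav scaling (2.91%). With copies merged, 1 was called higher and 7 lower of 44 (2.94%). edgeR called 2 and 6 (2.98%). A pseudocount of 0.5, no filter, TMM scaling and a filter on the mean each called 2 and 5, all 7 of them the same segments. In that order, these fits called 2.87%, 1.92%, 2.92% and 2.90% of all genes.

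Leaving out 1 library gave 0 to 2 higher and 0 to 10 lower, always with limma. All genes called fell from 398 of 13602 to 69 of 13310 (0.518%) without double knockout replicate 1 and to 58 of 13355 (0.434%) without control replicate 1, and lay between 0.874% and 3.73% without each of the others. Both Trav counts were 0 without replicate 1 of the double knockout and also without control replicate 1, with 6 higher and 30 lower, and 5 higher and 21 lower, at an unadjusted p below 0.05. Without control replicate 2 the counts were 1 and 0 (5 and 22 unadjusted) and without control replicate 3 they were 2 and 0 (6 and 20 unadjusted). Without double knockout replicate 2 they were 1 and 10, and without replicate 3 they were 2 and 2. Leaving out a control also took the segments tested from 57 to between 45 and 47, since segments low in the double knockout then missed the filter; other causes were not tested.

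The replicate numbers are shared by the groups, and the labels do not say whether they pair the samples. Deviations of same-numbered libraries correlated at 0.0739, 0.0538 and 0.0924, all under 0.1, against -0.0955 to 0.0325 for libraries with unlike numbers. Values this small cannot decide whether the numbers pair the samples. Every library correlated best with its own number, a hint from the data and not from the design. With the number as a replicate block, 1 segment was called higher and 2 lower, where 1.95% of all genes were called. The log2 fold change of Trav13n-4 turned from -2.35 to 0.28 with copies merged. That of Trav16 turned to -0.77 with copies merged and to -0.17 without double knockout replicate 2, and it ranged up to 0.64 over fits that left out 1 library; the cause was not tested. All 160 alternative values of the library summaries and zone shares kept their direction and side of the threshold, which 3 against 3 cannot pass. Depth limits the rows with few reads. In the 5′ block Trav1 had 125 reads in all, Trav3-1 81 and Trav7-1 74, and in the d block Trav6d-3 had 31.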

Other observations

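Trav pseudogenes, annotated V segments that cannot encode a working chain, were counted apart from the 108 members. Of 20 such rows, 11 had reads and 3 were kept, Trav8-2, Trav13-3 and Trav20. Limma, edgeR and DESeq2 called 0 of the 3, and none had an unadjusted p below 0.05 in any of these fits. Trav8-2 stood at 150.7, 158.1 and 187.9 in the double knockout libraries against 178.4, 254.9 and 135.9 in the controls, and the groups overlapped. It lies among V segments of the same locus, and its log2 fold change was -0.15.

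The V segments of the beta chain, encoded by the Trbv genes on another chromosome, were read as a comparison. Of 22 rows 21 were kept, and 5 fell and 0 rose in limma, with a median log2 fold change of -0.78, where 1.07% of all genes were called lower and 1.85% higher. At an unadjusted p below 0.05, 11 were lower and 0 higher. edgeR called 0 higher and 4 lower, and DESeq2 0 and 6, where they called 2.98% and 8.24% of all genes in either direction. The beta constant genes Trbc1 and Trbc2 did not pass, with log2 fold changes of -0.32 and -0.50.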
